A study of Mus musculus with 6 samples.

Results

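The MITF/TFE family is a group of 4 related transcription factor genes, Mitf, Tfeb, Tfe3 and Tfec. Members were the probe sets that the platform annotation pairs with exactly 1 gene symbol from that family, which gave 5 of the 21789 single-gene probe sets and 4 of the 19938 genes tested. Mitf had 2 probe sets and each of the other genes had 1. The cells were Melan-Ink4a, a continuously growing line of C57BL/6J skin melanocytes with the genotype Ink4a-ARF1 null, meaning that both products of that tumour suppressor locus are missing in every sample. The NRG1 group (3 arrays) had received 10 nM NRG1-b1, a form of the growth factor neuregulin 1, for 21 days. The untreated group (3 arrays) had not, and the labels state no culture time for it. Both groups grew in medium with 10% serum, 200 nM of the phorbol ester TPA, which acts on protein kinase C, and 200 pM cholera toxin, which raises cyclic AMP, and RNA was taken at 90% confluence. The line is a single line, and nothing in the labels says that the 3 samples of a group were separate cultures, so p-values cover the variation of these samples alone, and that may be technical. The comparison addresses how NRG1, a ligand of the receptor ERBB3, alters melanocyte transcripts.

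The 4 proteins share a basic helix-loop-helix leucine zipper, through which they pair with themselves and with each other and bind E-boxes, short DNA sites with the outline CANNTG. MITF is the central regulator of the melanocyte lineage and acts on pigment genes through an E-box variant called the M-box. TFEB and TFE3 act on genes of the lysosome and of autophagy through E-boxes gathered under the name CLEAR, and much of their control lies in movement between cytoplasm and nucleus rather than in transcript level. TFEC is known best from cells of the macrophage lineage.

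Sequences of the RefSeq promoter table (assembly GRCm38.p6; 250 bases before to 50 after each start) show the sites at issue. Of its 27025 genes the table holds all 4 family genes, with 9 start sites: 3 for Mitf, 3 for Tfeb, 2 for Tfe3 and 1 for Tfec. In these 9 windows neither the M-box core TCATGTG nor the E-box TCACGTG was found on either strand. The last Mitf start in gene order lies at the place known for the melanocyte form of MITF, and its window held the cyclic AMP response element TGACGTCA at position -153 and the LEF/TCF letters CTTTGAT at position -205. The other 8 starts held neither of these. TGACGTCA was present in 2.03% of all genes of the table and CTTTGAT in 4.29%. The 250 bases before that start (chr6:97991533-97991782, plus strand) are shown because genes for factors known to act on this promoter are described further on, with both matches in capitals.
Mitf, last start: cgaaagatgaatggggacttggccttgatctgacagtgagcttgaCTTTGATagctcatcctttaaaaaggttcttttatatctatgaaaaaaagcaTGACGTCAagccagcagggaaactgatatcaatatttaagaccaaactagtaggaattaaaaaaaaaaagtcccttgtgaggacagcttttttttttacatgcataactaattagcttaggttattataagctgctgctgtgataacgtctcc

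On the target side, the M-box core TCATGTG was found in the windows of Tyr, Tyrp1 and Dct, which encode the 3 enzymes of melanin synthesis. The longest letters that these 3 windows share around it are GTCATGTGCT. On either strand they occurred in 42 of the 27025 genes (0.155%). The shorter core TCATGTG occurred in 4.31% of genes. The windows around the longer form are shown because these enzyme genes are the best known MITF targets, with the shared letters in capitals and each read on the strand of its gene. They lie at chr7:87493513-87493550 (minus strand), chr4:80834150-80834189 (plus strand) and chr14:118052374-118052413 (minus strand).
Tyr: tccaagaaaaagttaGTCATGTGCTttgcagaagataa
Tyrp1: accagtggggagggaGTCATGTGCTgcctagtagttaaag
Dct: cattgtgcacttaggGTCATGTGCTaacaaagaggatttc
A match of letters is a description and does not show that a factor binds there.

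Array values are the deposited log2 values, and the values of different probe sets were not set against each other. Over all probe sets the array medians lay between 6.99 and 7.07. Across the tested genes, Pearson r was 0.996 to 0.997 between arrays of 1 group and 0.981 to 0.986 between groups. By limma at an adjusted p under 0.05, 4168 genes were called, which is 20.9% of those tested. Of these, 2461 rose with NRG1 (12.3% of the genes tested) and 1707 fell (8.56%), while quantile normalization gave 2257 rises and 2396 falls. The melanocyte markers Mlana, Pmel, Tyr, Tyrp1, Dct and Sox10 were all far above the array medians, with means from 10.96 to 13.88. Of these 6, 5 fell with NRG1 (83.3%, against 8.56% of all genes), and Sox10 was not called. Mlana was at -1.09 (limma, adjusted p = 4.61e-06) and Pmel at -0.64 (adjusted p = 2.95e-05). The mean level of this list was 12.48 to 12.50 with NRG1 and 12.92 to 12.93 untreated, so the groups did not overlap. Of the markers of other cell types, 9 of 10 for macrophages, 6 of 7 for keratinocytes, 4 of 7 for fibroblasts and 6 of 6 for osteoclasts had means under 7.11, the smallest of the 6 array medians over tested genes. The mean levels of the keratinocyte list (6.92 to 6.99 with NRG1, 6.79 to 6.94 untreated), the fibroblast list (6.72 to 6.87 and 6.66 to 6.84) and the Schwann cell list (7.81 to 7.88 and 7.82 to 7.89) overlapped between the groups. Single markers of these lists were called all the same: Itga6 of the keratinocyte list (0.96, limma, adjusted p = 4.05e-06) and Col1a1 of the fibroblast list (0.86, adjusted p = 2.95e-06) rose under every alternative. Gfap of the Schwann cell list (0.24, adjusted p = 0.0375) and Cd68 of the macrophage list (0.23, adjusted p = 0.0319) rose as well, and each lost its call under 6 alternatives. The part of these markers in the results was not tested. In bulk RNA, fewer cells of a type and less RNA per cell cannot be told apart.

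Mitf was lower with NRG1, and the other 3 family genes were not called. The leading Mitf probe set read 11.67, 11.70 and 11.63 in the untreated samples and 11.12, 11.14 and 11.16 with NRG1. The groups lay far apart compared with their own spread, and every NRG1 value was below every untreated value. Groups that did not overlap were found in 36.7% of all tested genes. The mean went from 11.67 ± 0.0365 to 11.14 ± 0.0178 (SD, n = 3 each), a change of -0.53 ± 0.0571 (SE) on the log2 scale or 1.44-fold (limma, adjusted p = 8.5e-05). The 95% interval of the change ran from -0.65 to -0.40. Of all tested genes, 94.2% had a smaller absolute change.

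The other Mitf probe set was also lower with NRG1, with more scatter. It read 9.44, 9.15 and 9.47 untreated and 8.87, 8.27 and 9.06 with NRG1. The groups did not overlap, and the lowest reading came from NRG1 replicate 2. The change was -0.62 ± 0.173 (SE; limma over all single-gene probe sets, adjusted p = 0.0286, where 21.6% of probe sets were called). Without NRG1 replicate 2 the change was -0.39 (adjusted p = 0.0375). The call was lost when untreated replicate 1 (-0.57, adjusted p = 0.0869) or untreated replicate 3 (-0.56, adjusted p = 0.10) was left out. The annotation ties both probe sets to the same 3 RefSeq mRNAs of Mitf, so the melanocyte form and the forms from other starts cannot be told apart here.

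Tfeb, the family member best known for lysosome and autophagy genes, read 8.33, 8.43 and 8.41 untreated and 8.30, 8.33 and 8.32 with NRG1. The groups met at 8.33 without crossing, and 36.7% of all tested genes likewise had groups that did not overlap. Its change was -0.079 ± 0.0588 (SE; limma, adjusted p = 0.405), with a 95% interval from -0.21 to 0.052. No alternative setting called it, and its adjusted p ran from 0.0796 under quantile normalization to 0.624.

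Tfe3, its close relative with overlapping targets, read 8.02, 8.11 and 7.96 untreated and 8.06, 8.04 and 8.00 with NRG1. All 3 NRG1 values lay inside the untreated range. The change was 0.0016 ± 0.0631 (SE; limma, adjusted p = 0.99), and the 95% interval from -0.14 to 0.14 leaves out a change of the size measured for Mitf. The sign of this small difference varied with the setting, from -0.049 to 0.043.

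Tfec read 5.12, 5.16 and 5.19 untreated and 4.98, 5.22 and 5.38 with NRG1. The NRG1 samples spread to both sides of the untreated ones. The change was 0.034 ± 0.0927 (SE; limma, adjusted p = 0.847), with a 95% interval from -0.17 to 0.24. Its mean of 5.17 was dimmer than all but 13.2% of genes, and a difference this close to background can be understated by an array. Macrophage markers, from cells in which Tfec is known to be active, had a mean list level of 6.01 to 6.05 with NRG1 and 5.97 to 6.12 untreated, so these ranges overlapped.

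Whether the family genes changed by different amounts was tested on the difference between probe sets within each array, in 7 pairs. The change of Mitf was below that of Tfeb by -0.45 ± 0.0378 (SE), below that of Tfe3 by -0.53 ± 0.0367 and below that of Tfec by -0.56 ± 0.112. In each of these 3 pairs the NRG1 and untreated arrays did not overlap, and each had p = 0.1 in a 2-sided exact permutation test, the smallest that 3 arrays against 3 allow (0.233 after adjustment over the 7 pairs). The pairs among Tfeb, Tfe3 and Tfec differed by -0.11 to -0.033, with overlapping arrays and exact permutation p-values from 0.2 to 0.9. These small differences moved with single arrays. Tfe3 minus Tfec was -0.15 with NRG1 replicate 1 left out, 0.075 with NRG1 replicate 3 and 0.0085 with untreated replicate 2 left out. Tfeb minus Tfec was -0.21 and -0.022 with NRG1 replicates 1 and 3 left out in turn (-0.22 after quantile normalization), and Tfeb minus Tfe3 was -0.033 with untreated replicate 3 left out. The 2 Mitf probe sets differed in change by 0.089 ± 0.267 (exact permutation p = 0.8), less than their error. With single arrays left out that value ran from -0.14 (NRG1 replicate 2) to 0.24 (NRG1 replicate 3), so its sign rests on 1 array.

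**Figure D1:**
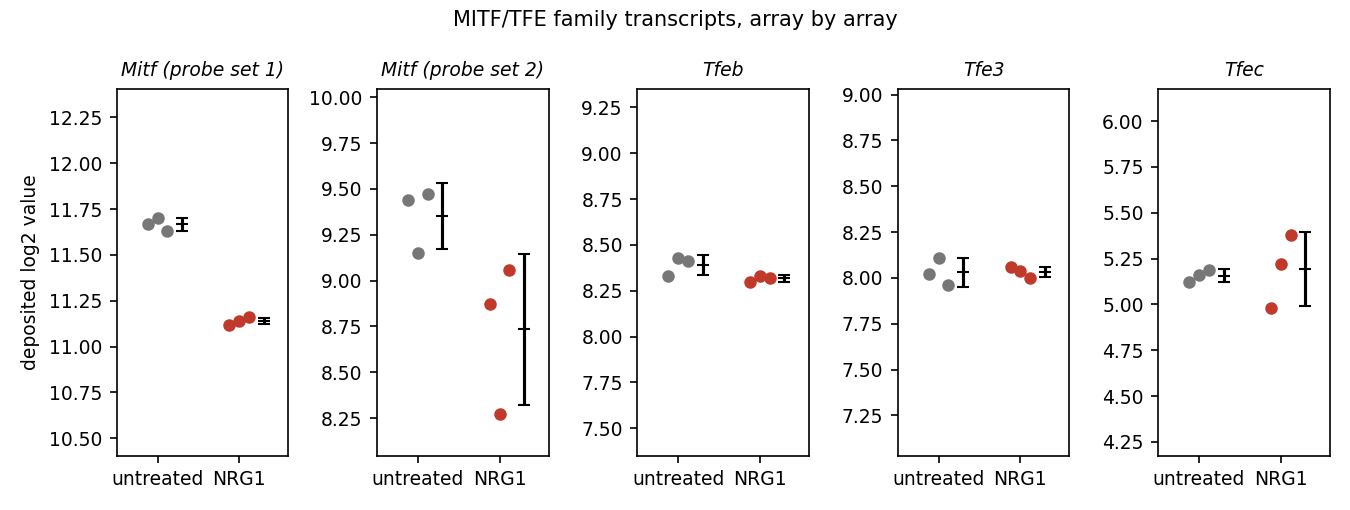
Deposited log2 value of each family probe set (vertical axis) in the 3 untreated arrays (grey) and the 3 NRG1 arrays (red). Bars are the mean ± SD, and every panel spans 2 log2 units. The leading Mitf probe set steps down from 11.67 to 11.14, whereas Tfe3 stays at 8.03 in both groups.

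**Figure D2:**
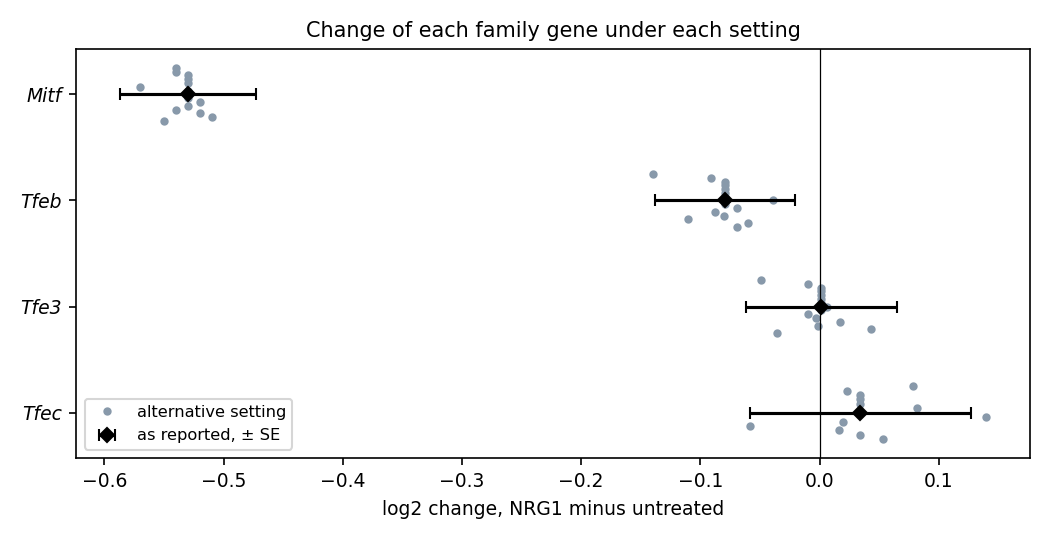
Change of each family gene, NRG1 minus untreated on the log2 scale (horizontal axis), as reported (black diamond, ± SE) and under each alternative setting (grey points). Mitf stays between -0.57 and -0.51, while the points of Tfe3 and Tfec fall on both sides of 0.

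Most genes for factors that act on the Mitf gene were not called. Of 17 measured, 2 rose and 2 fell (11.8% each), close to the 12.3% and 8.56% of all genes. The median change was -0.044 against -0.029 over all genes. Sox10, which encodes the main activator of the melanocyte promoter of Mitf, read 10.94, 10.91 and 10.95 untreated and 10.97, 11.04 and 10.96 with NRG1. These values were close together, and Sox10 was not called (0.056 ± 0.0579 SE; limma, adjusted p = 0.565). Pax3, the gene of another activator of that promoter, read 12.13, 12.12 and 12.11 untreated and 11.57, 11.59 and 11.61 with NRG1. It fell by 0.53 on the log2 scale (limma, adjusted p = 7.18e-05), with groups that did not overlap, as in 36.7% of all tested genes.

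Lef1, which encodes the beta-catenin partner that binds LEF/TCF sites, rose. It read 7.88, 7.99 and 7.92 untreated and 9.03, 9.10 and 8.78 with NRG1, a 2.06-fold difference (limma, adjusted p = 1.19e-05). Ctnnb1, the beta-catenin gene, was at 0.017 (adjusted p = 0.882). Creb1, whose product binds the cyclic AMP response element, was at -0.054 (adjusted p = 0.582), and the genes of its coactivators Crtc1 and Crtc3 were at 0.051 and -0.17 without being called. Sik2, the gene of a kinase that restrains those coactivators, fell by 0.24 (adjusted p = 0.016). It lost its call when NRG1 replicate 3 was left out (adjusted p = 0.0587), leaving 1 fall in the list. Atf4, a stress-induced factor reported to repress Mitf, read 8.97, 9.01 and 8.89 untreated and 9.52, 9.47 and 9.43 with NRG1, a rise of 0.52 (limma, adjusted p = 0.000163). Quantile normalization gave 5 falls in this list in place of 2.

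The MITF protein works with partners that bind, modify or assist it. Of 16 measured partner genes 4 rose and 3 fell, where 12.3% and 8.56% of all genes did. The median change was -0.044 against -0.029 over all genes. Irf4, which encodes an interferon regulatory factor that acts with MITF on Tyr and is itself an MITF target, had the steepest fall of the list. It read 9.03, 9.25 and 9.03 untreated and 8.31, 8.35 and 8.30 with NRG1, so that the groups were well separated, with a change of -0.78 ± 0.0725 (SE; limma, adjusted p = 2.95e-05). The chromatin remodeller genes Chd7 and Smarca4 rose by 0.37 (adjusted p = 0.00562) and 0.34 (adjusted p = 0.0043), and Lef1, which is counted here too, was the most changed of the rises. Rb1, the retinoblastoma gene, made up the fourth rise (0.26, adjusted p = 0.0349) and lost its call under 6 alternatives. Sirt1, a deacetylase gene, fell by 0.30 (adjusted p = 0.0163), but not with NRG1 replicate 1 left out (0.0658). Tfap2a, the gene of a factor that shares many sites with MITF, fell by 0.25 (adjusted p = 0.0136). It missed the threshold when NRG1 replicate 1 (adjusted p = 0.0618) or untreated replicate 1 (0.0546) was left out. Hint1, which encodes an inhibitor of MITF, was at -0.19 (adjusted p = 0.0722) and Pias3, the gene of another, at 0.12 (adjusted p = 0.351). The falls numbered 1 without NRG1 replicate 1 and 7 after quantile normalization.

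TFEB and TFE3 are held in the cytoplasm when the kinase complex mTORC1 is active at the lysosome, where Rag GTPases present them to it and 14-3-3 proteins then retain them. Of 36 measured genes of this control layer 8 rose and 4 fell (22.2% and 11.1%), against 12.3% and 8.56% of all genes. The median change was 0.01. The rises were those of Ppp3ca (0.51), Xpo1 (0.50), Ywhag (0.42), Rheb (0.41), Ywhae (0.35), Ywhaz (0.35), Ywhab (0.28) and Akt1 (0.26). Ppp3ca encodes the catalytic subunit of calcineurin, the phosphatase that releases TFEB, Xpo1 the nuclear exporter, Rheb the activator of mTORC1 and the 4 Ywha genes 14-3-3 proteins. Of the 6 measured 14-3-3 genes, Ywhah (0.10) and Ywhaq (0.12) were not called. The Akt1 call was lost when NRG1 replicate 1 or 2 or untreated replicate 1 or 3 was left out (adjusted p = 0.0533 to 0.0832).

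Rragd, the gene of a Rag GTPase that the family itself activates, fell. It read 8.15, 8.36 and 7.99 untreated and 7.60, 7.67 and 7.79 with NRG1, with no overlap, as in 36.7% of all tested genes. The change was -0.48 ± 0.0945 (SE; limma, adjusted p = 0.00459). The genes of the other Rag GTPases, Rraga (0.15), Rragb (0.00064) and Rragc (-0.15), were not called. Fnip1, a partner of folliculin in this pathway, fell by 0.34 (adjusted p = 0.00273), while the folliculin gene Flcn was at -0.17 (adjusted p = 0.0961) and Fnip2 at -0.13 (adjusted p = 0.20). Mcoln1, the gene of a lysosomal calcium channel, and Tsc1, the gene of an mTORC1 inhibitor, were called at -0.23 (adjusted p = 0.0439) and -0.21 (adjusted p = 0.0314). Both missed the threshold with the replicate number as a block (adjusted p = 0.0508 and 0.0754) and when NRG1 replicate 1 or 3 or untreated replicate 2 or 3 was left out (0.0547 to 0.145), and each of these settings left 2 falls in the list. Mcoln1 was also not called with array weights (0.0556), nor Tsc1 when NRG1 replicate 2 (0.0724) or untreated replicate 1 (0.0549) was left out. The Mtor gene itself was at -0.005 (adjusted p = 0.965). Quantile normalization gave 8 falls in place of 4.

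Genes known as MITF targets in pigment cells were lower with NRG1, with 2 exceptions. Of 22 measured, 20 fell and 1 rose, where 8.56% and 12.3% of all genes did, and the median change was -0.64 against -0.029 over all genes. Irf4 is counted in this list as well, and so are the fallen melanocyte markers Mlana, Pmel, Tyr, Tyrp1 and Dct. The calls of 18 of the 20 held under all 15 alternatives. Those of Dct and Gpnmb did not, and Gpnmb (-0.22, limma, adjusted p = 0.0171) missed the threshold in 5 of them (0.0501 to 0.103). In 13 of the 22 the measured fall was larger than that of Mitf, a difference that was not tested. Oca2, which encodes a melanosomal ion transporter, read 11.94, 11.96 and 12.03 untreated and 10.07, 10.28 and 10.26 with NRG1, 3.41-fold lower (limma, adjusted p = 1.09e-07). Slc24a5, the gene of a cation exchanger of pigment cells, read 11.59, 11.65 and 11.56 untreated and 10.17, 10.22 and 10.31 with NRG1, 2.58-fold lower (adjusted p = 2.14e-07). In both genes the gap between the groups was many times the spread within them. Trpm1, an ion channel gene long known as an MITF target, read 8.11, 8.19 and 8.01 untreated and 7.06, 7.13 and 7.19 with NRG1 (-0.98 ± 0.069 SE; adjusted p = 4.31e-06).

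The 3 enzyme genes had smaller changes than these. Tyr, for tyrosinase, read 12.04, 12.03 and 11.99 untreated and 11.55, 11.54 and 11.61 with NRG1, a change of -0.45 ± 0.0577 (SE; limma, adjusted p = 0.000274). Tyrp1 read 14.01, 13.97 and 13.98 untreated and 13.72, 13.72 and 13.75 with NRG1 (-0.26 ± 0.056 SE; adjusted p = 0.00805). Dct read 14.00, 13.99 and 14.00 untreated and 13.73, 13.77 and 13.79 with NRG1 (-0.23 ± 0.0561 SE; adjusted p = 0.0136). None of the 3 overlapped between groups, as was the case for 36.7% of all tested genes. Tyrp1 and Dct read near the top of the arrays' range (14.59), where differences can be understated. Quantile normalization left Dct uncalled (-0.085, adjusted p = 0.25), as did leaving out NRG1 replicate 1 (0.0594) or untreated replicate 1 (0.0536). Across all tested genes 9 held the longer letters, the 3 enzyme genes by construction, and of the other 6 Dclk1, a kinase gene, was called, at -0.41 (limma, adjusted p = 0.00117). With the shorter core there were 529 tested genes, of which 10.6% fell and 8.51% rose, beside 8.56% and 12.3% of all tested genes, with no test of these shares.

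Of the 16 pigment targets with a promoter window, 7 (43.8%) held TCATGTG, against 4.31% of all genes. They were Tyr, Tyrp1, Dct, Slc24a5, Trpm1, Mc1r and Tspan10. The list was drawn from known MITF targets, so this share is a description of the list. Of these 7 genes, 6 fell and Mc1r rose. Over the whole list 20 of 22 fell (90.9%), with or without the letters, against 8.56% of all genes. Mc1r, the melanocortin receptor gene, read 8.70, 8.69 and 8.72 untreated and 9.08, 9.03 and 8.97 with NRG1 (0.32 ± 0.0592 SE; limma, adjusted p = 0.003). It thus lay apart from the list in direction while holding the same letters. The other exception was Tpcn2, the gene of an ion channel of lysosomes and melanosomes, at 0.17 (adjusted p = 0.0865).

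**Figure D3:**
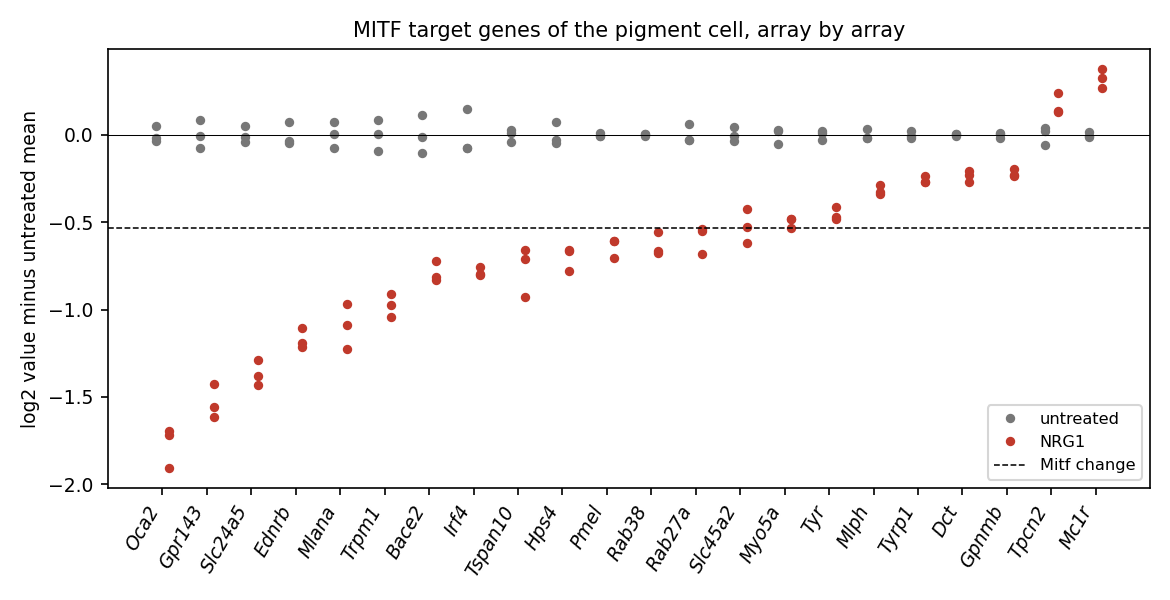
Log2 value minus the untreated mean of the same gene (vertical axis) for the 22 MITF targets of the pigment cell, in untreated (grey) and NRG1 (red) arrays. The dashed line is the change of Mitf, -0.53. The NRG1 arrays of 20 genes lie below 0, from Oca2 at -1.77 to Gpnmb at -0.22, and those of Tpcn2 and Mc1r lie above.

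MITF targets from outside pigment production did not share one direction. Of 39 measured, 11 fell and 6 rose (28.2% and 15.4%), against 8.56% and 12.3% of all genes. The median change was -0.048 against -0.029 over all genes. Plxnc1, the semaphorin receptor gene, read 11.62, 11.72 and 11.61 untreated and 8.98, 9.18 and 9.16 with NRG1, 5.83-fold lower (limma, adjusted p = 1.01e-08). Slc7a8, an amino acid transporter gene, fell by 1.03 (adjusted p = 1.42e-06), Met, the receptor for hepatocyte growth factor, by 0.83 (adjusted p = 5.16e-06), and Cdk2, a cell cycle kinase gene that shares its locus with Pmel, by 0.56 (adjusted p = 8.38e-05). In the opposite direction, Gpm6b, a membrane glycoprotein gene, read 7.10, 7.16 and 7.17 untreated and 9.10, 9.13 and 9.17 with NRG1, 3.97-fold higher (adjusted p = 1.15e-08). Sema6a, a transmembrane semaphorin gene, rose by 1.86, Lig1, for DNA ligase I, by 0.79, and Hif1a, the hypoxia factor gene, by 0.54. The survival gene Bcl2 was at -0.20 (adjusted p = 0.0557) and Ppargc1a, the gene of the mitochondrial regulator PGC1-alpha, at -0.046 (adjusted p = 0.787).

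Family targets known from osteoclasts and mast cells were mostly dim in these cells. Of 10 measured, 6 had means under the lowest array median, and the brighter ones were Kit, Clcn7, Ostm1 and Itga4. Kit and Clcn7 fell, and the other 8 were not called by limma, while 8.56% of all genes fell and 12.3% rose. Kit, the receptor for stem cell factor, read 9.75, 9.85 and 9.79 untreated and 8.46, 8.44 and 8.40 with NRG1, 2.56-fold lower (adjusted p = 1.59e-07). The osteoclast protease gene Ctsk was at 0.11 (adjusted p = 0.385) and Acp5, the gene of an osteoclast phosphatase, at -0.23 (adjusted p = 0.10). Clcn7, the gene of a lysosomal chloride transporter, was at -0.27 (adjusted p = 0.0114) and lost its call when NRG1 replicate 1 was left out (0.0538), which left 1 fall.

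Lysosomal genes of the CLEAR network, the known output of TFEB and TFE3, moved both ways with more falls than rises. Of 36 measured, 15 fell and 5 rose, 41.7% and 13.9%, against 8.56% and 12.3% of all genes, and the median change was -0.10. Ctsf, a cathepsin gene, read 9.31, 9.40 and 9.34 untreated and 8.24, 8.38 and 8.32 with NRG1, 2.05-fold lower (limma, adjusted p = 1.45e-06). Lamp1, a major protein of the lysosomal membrane, read 12.27, 12.25 and 12.27 untreated and 11.85, 11.92 and 11.89 with NRG1 (-0.38 ± 0.0568 SE; adjusted p = 0.000778). Lipa, the gene of the lysosomal acid lipase, went the other way and read 10.31, 10.44 and 10.36 untreated and 11.43, 11.47 and 11.53 with NRG1, 2.15-fold higher (adjusted p = 8.91e-07). Scarb2 (0.60), which encodes a lysosomal membrane protein, and the sulfatase gene Galns (0.58) also rose. The cathepsin gene Ctsd was at -0.034 (adjusted p = 0.741). With NRG1 replicate 1 left out, the list had 8 falls.

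The E-box TCACGTG was present in 13 of the 32 lysosomal genes with a promoter window (40.6%) and in 4.29% of all genes. The list was drawn from genes known for such sites, so this share is a description of the list. Of the 13 genes 6 fell and the other 7 were not called, and of the 19 without these letters 8 fell and 4 rose. Among those 6 falls, the calls of Lamp1 and Ctsa held under every alternative, and those of Mcoln1, Clcn7, Gaa and Sgsh did not. In the whole lysosomal list, 8 of the 15 falls held in this way. Over all 835 tested genes with TCACGTG, 13.9% fell and 13.7% rose. Windows of 2 genes that fell under every alternative setting, Lamp1 and Ctsa (-0.28; limma, adjusted p = 0.00742), and of Ctsd, which was not called, are shown to set these letters beside different outcomes, with each match to TCACGTG or its reverse complement CACGTGA in capitals on the strand of each gene. The Lamp1 window holds 2 separate matches, while in Ctsa and Ctsd the matches on the 2 strands overlap. They lie at chr8:13159130-13159160 (plus strand), chr2:164833746-164833772 (plus strand) and chr7:142387904-142387940 (minus strand).
Lamp1: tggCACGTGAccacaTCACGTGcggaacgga
Ctsa: caatgagcaaactgTCACGTGAtgcag
Ctsd: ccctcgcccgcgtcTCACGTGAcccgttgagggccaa

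The proton pump that acidifies lysosomes and melanosomes is part of the same network. Of 15 measured pump genes 7 fell (46.7%, against 8.56% of all genes) and the other 8 were not called by limma. The median change was -0.14. Of the 7 calls, 5 held under every alternative. Atp6v1a (-0.19; limma, adjusted p = 0.0393) was called in 8 of 15 alternatives and Atp6v1f (-0.20; adjusted p = 0.0471) in 7. Atp6v0d2, the gene of a membrane-sector subunit, read 8.35, 8.60 and 8.19 untreated and 6.60, 6.56 and 6.30 with NRG1, 3.72-fold lower (adjusted p = 1.16e-06). Its sister gene Atp6v0d1, which is expressed in most tissues, was at -0.084 (adjusted p = 0.453). Atp6v1b2, for a catalytic-sector subunit, fell by 0.44 (adjusted p = 0.00027), Atp6v0a1 by 0.37 (adjusted p = 0.00144) and Atp6ap2, an accessory subunit gene, by 0.33 (adjusted p = 0.00329). The catalytic-sector genes Atp6v1e1 and Atp6v1h were each at 0.10 without a call.

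Of 26 autophagy genes tied to the family, 5 fell and 1 rose (19.2% and 3.85%), against 8.56% and 12.3% of all genes. The median change was -0.097. Rragd and the risen Hif1a, given above, are among them. Gabarapl1, the gene of an autophagosome membrane protein, read 9.98, 10.03 and 9.97 untreated and 9.43, 9.53 and 9.60 with NRG1 (-0.47 ± 0.0643 SE; limma, adjusted p = 0.00043). The trafficking gene Vps11 fell by 0.34 (adjusted p = 0.00207) and Uvrag, an autophagy regulator, by 0.29 (adjusted p = 0.00725). Sqstm1, the autophagy receptor gene often used as a readout of TFEB, was at 0.022 (adjusted p = 0.843). Quantile normalization gave 12 falls in place of 5.

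**Figure D4:**
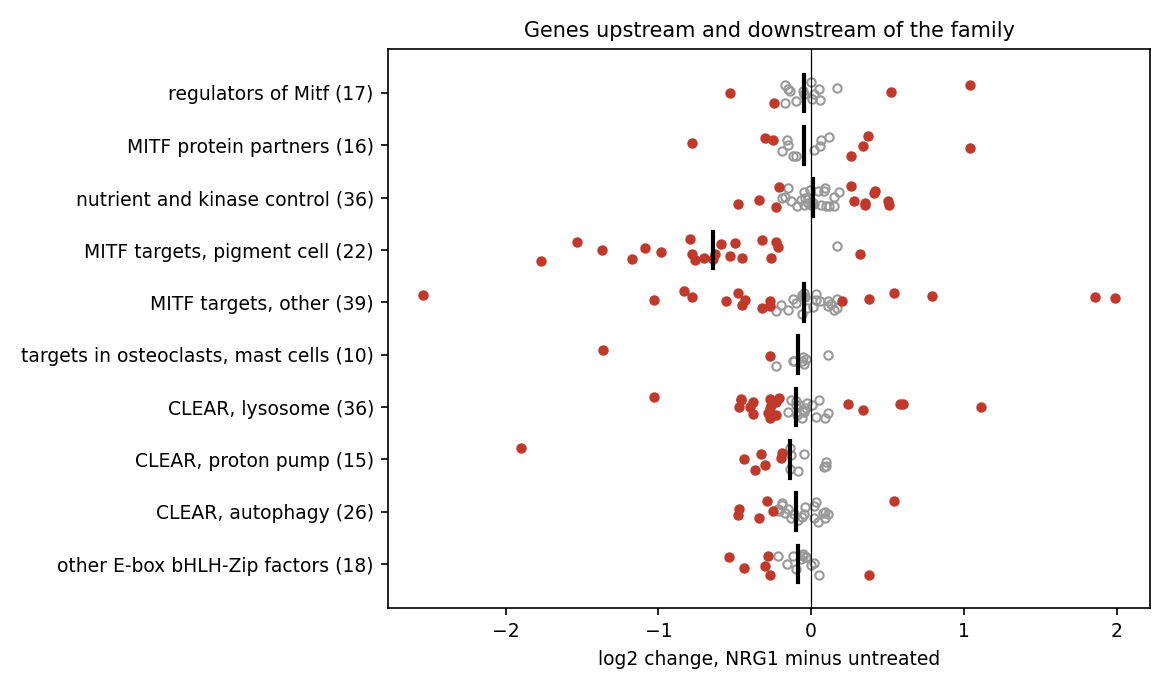
Log2 change, NRG1 minus untreated (horizontal axis), of every measured gene in each list, with the number measured in brackets. Red points were called by limma, open points were not, and the black bar is the list median. The median of the pigment cell targets of MITF is -0.64, while those of the other 9 lists lie between -0.14 and 0.01.

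The family shares its E-box with other helix-loop-helix leucine zipper factors, with which it is not known to pair. Of 18 measured genes of that class 5 fell and 1 rose (27.8% and 5.56%), against 8.56% and 12.3% of all genes. The median change was -0.083. Mxd1, the gene of a MAX partner that represses MYC targets, read 9.46, 9.65 and 9.52 untreated and 8.96, 8.97 and 9.07 with NRG1 (-0.54 ± 0.0691 SE; limma, adjusted p = 0.000265). Tfap4 fell by 0.44 and Mxd4 by 0.30. Srebf1, the gene of a lipid synthesis regulator, rose by 0.38 (adjusted p = 0.00156). Usf1 (-0.052) and Usf2 (0.016), whose products bind the same CACGTG core, were not called, nor was Max (-0.031). Quantile normalization gave 8 falls in place of 5.

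Across the 6 arrays, the genes whose profile was most like that of the leading Mitf probe set were Kat6b, a histone acetyltransferase gene (Pearson r = 0.9997), Hps3, a gene of melanosome biogenesis (0.9992), and Inpp4b, a phosphoinositide phosphatase gene (0.9991). These 3 fell by 0.36, 0.55 and 0.78, and Inpp4b is also counted among the fallen MITF targets from outside pigment production. The points of such a correlation fall into the 2 treatment groups, and 878 genes exceeded 0.95, so it describes the step between groups. For Tfeb the nearest profiles were those of Acaa1b, Tmem140 and Cln3 (0.9873 to 0.9895), for Tfe3 those of Bnip3l, Kri1 and Pf4 (0.991 to 0.9971), and for Tfec those of Txndc2, Pkd2l2 and Scrt1 (0.9764 to 0.9799). None of these 9 genes was called by limma, at changes from -0.25 to 0.033.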

How the data were processed

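Each of the 6 samples, 200 ng of RNA apiece, went onto a Mouse Gene 1.0 ST array from Affymetrix. Values are log2 as deposited by the authors, and RMA and GCOS are named per the submitters' processing notes. The sources used here give neither version nor settings. That the scale is log2 was inferred from the range (2.34 to 14.59). An array has no read depth, and 3 arrays per group limit the precision. Probe sets with 1 gene symbol (21789 of 35557) were renamed through Entrez numbers to RefSeq symbols, and the brightest per gene was tested, 19938 in all. Probe sets with several genes (1621) or unnamed here (12147) were left out, so some list genes had no value.

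Changes are NRG1 minus untreated. The test was 2-sided, from lmFit and eBayes of limma 3.58.1 (R 4.3.3), at an adjusted p under 0.05 (Benjamini-Hochberg, all tested genes). The fit was tested on simulated data. Differences between members were tested by exact permutation. Lists came from general knowledge of the family and are described by counts and medians. Members and lists were chosen with earlier results of these data known, and the motifs GTCATGTGCT (taken from the windows of Tyr, Tyrp1 and Dct), TGACGTCA and CTTTGAT were added after the values were seen. In each list, up to 4 called genes per direction were to be named, or the gene with the smallest p, and for each member the 3 genes with the most similar profile. The text leaves out some of these (Gpr143, Ednrb, Ids, Tpp1, Ctns, Gusb and Myc), so the genes printed are not always those with the largest changes. It also prints other list members, chosen for their role after their values were seen. Alternatives were quantile normalization, median centring, filters on dim genes at the median and at the 25th percentile, all probe sets, averaged probe sets, a replicate block, a trend with robust prior, array weights, and each array left out.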

Additional observations from a re-analysis of the deposited data

How the results depend on the processing

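The change of Mitf kept its sign and its call under all 15 alternatives, and Tfeb, Tfe3 and Tfec were called under none of those that tested them (15, 15 and 13). Without single arrays the other Mitf probe set ranged from -0.78 to -0.39. Counts of falls moved by more than 1.5 times as follows. Quantile normalization gave 5 for regulators of Mitf, 8 for nutrient and kinase control, 7 for protein partners, 12 for autophagy and 8 for the other E-box factors. The filter at the median level gave 4 for regulators, 7 for nutrient control, 5 for partners and 11 for autophagy, and the filter at the 25th percentile gave 8 for autophagy. Autophagy falls were 11 with a trend and robust prior and 8 with array weights, which gave 4 for regulators. The pigment targets that rose numbered 2 with the median filter, the trend and robust prior, or array weights. The cause of these moves was not tested. Without single arrays, falls ranged from 1 to 2 for regulators, 2 to 3 for nutrient control, 1 to 3 for partners, 1 to 3 for osteoclast and mast cell targets and 8 to 14 for lysosomal genes. Deviations of same-numbered arrays correlated at -0.095, -0.164 and 0.0739, and those of differently numbered arrays at -0.196 to 0.247. These values do not settle whether same-numbered arrays share more than a number. With the replicate number as a block, 3609 genes were called, nutrient control had 2 falls and the change of Mitf was -0.53 (limma, adjusted p = 0.000864). Another background correction was not run, since it needs probe-level signals. Dim signal limits what can be said of Tfec and the osteoclast genes.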
